A study of Mus musculus with 54 samples.

Results

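Imprinted genes are transcribed mainly from the maternal or from the paternal copy, according to DNA methylation that is laid down in the germ line at imprinting control regions. The zinc finger protein CTCF binds the unmethylated copy of several of these regions, and between H19 and Igf2 it keeps enhancers from acting on the maternal Igf2 copy. BORIS, encoded by Ctcfl, is a CTCF paralog with a closely similar DNA-binding domain that is made in male germ cells. Here 10 imprinted genes with a control linked to CTCF were followed through the testes of 4 mouse genotypes. They were the growth factor gene Igf2 and the neighbouring noncoding RNA H19, the Igf2 clearance receptor Igf2r, the growth restrainers Cdkn1c and Grb10, the paternally expressed Peg3, Mest, Dlk1 and Plagl1, and the guanine nucleotide exchange factor gene Rasgrf1. All 10 were chosen by name, with no measured value in the rule, and all 10 were found by symbol among the 23284 genes of both count tables.

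All libraries came from 3-month-old C57BL/6 males. The genotypes were wild type (WT), Ctcf+/- (CTCF HET), Boris-/- (BORIS KO) and the compound mutant Ctcf+/- Boris-/- (CM), so that CTCF HET and CM share the loss of 1 Ctcf copy and BORIS KO and CM share the loss of Boris in every cell. Each genotype was represented by 3 rRNA-depleted libraries of germ cell-enriched whole testis, each from 4 pooled mice, and by 3 poly(A) libraries each of purified round spermatids (haploid, after meiosis) and spermatocytes (in meiosis), except that WT spermatocytes had 2. The lists of CTCF, RNA polymerase II and H3K4me3 peaks covered WT and CM whole testis, and BORIS peaks covered WT. The whole testis libraries were independent preparations, while nothing states that the purified-cell libraries came from separate animals, so p-values there measure the spread between these samples, which may be technical.

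Library totals ran from 10437683 to 42055813 counts in whole testis, from 47740650 to 98545423 in round spermatids and from 53337530 to 88946702 in spermatocytes. In whole testis Ctcf, the gene deleted on 1 copy, was at 40.9 to 45.1 CPM (counts scaled to the TMM-adjusted library total) in WT, 22.9 to 30.3 in CTCF HET and 24.3 to 26.8 in CM. BORIS KO libraries, in which no Ctcf copy is deleted, held 30.7 to 38.8 CPM of Ctcf, below every WT library. Ctcfl was at 0.509 to 0.711 CPM in WT and at 0.122 to 0.401 in the 6 libraries without Boris. The purified cells did not follow their Ctcf genotype as clearly. Round spermatid libraries labelled CM held 177, 47.9 and 39.8 CPM of Ctcf against 29.6 to 49.6 in WT, and spermatocyte libraries labelled CM held 83.6, 33.1 and 32.4 CPM against 32.0 and 33.8, so directions drawn from them rest on labels that Ctcf does not bear out. Spermatocyte libraries labelled CTCF HET held 42.8, 50.5 and 31.3 CPM of Ctcf against the same WT values, and those of round spermatids held 34.1, 22.4 and 25.4, which overlap WT. Ctcfl in round spermatids was at 2.9 to 5.11 CPM in WT. BORIS KO libraries held 2.12 to 2.46 CPM of it and CM libraries 1.11 to 2.63, below every WT library but above 0. In spermatocytes it had 5 and 6 counts in WT and 0 to 8 in BORIS KO, too few for a check. It had 0 to 29 counts in CM and 0 to 94 in CTCF HET, with 2 of the 3 libraries of each at 0. The highest spermatocyte library labelled CM thus lay above WT. By their low counts 7 purified-cell libraries stood apart, namely round spermatid CM replicates 2 and 3, spermatocyte CM replicates 2 and 3 and all 3 of spermatocyte CTCF HET. They held 100 to 255 genes with 1 to 4 counts, against 506 to 3623 in the other 28 libraries, and 16 of their 70 values for the imprinted genes were 0, against 1 of 280 elsewhere. The plot of low counts shows this for each purified-cell library. In the round spermatid libraries the summed spermatocyte markers stood against the summed round spermatid markers at 1478 to 1864 against 1779 to 1896 CPM in WT, 1060 to 1492 against 1482 to 1559 in CTCF HET libraries, 765 to 837 against 1464 to 1526 in BORIS KO libraries, and 1797, 2410 and 2835 against 1451, 854 and 1259 CPM in CM. In every spermatocyte library they were the higher (3645 to 8789 against 637 to 907 CPM).

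**Figure D1:**
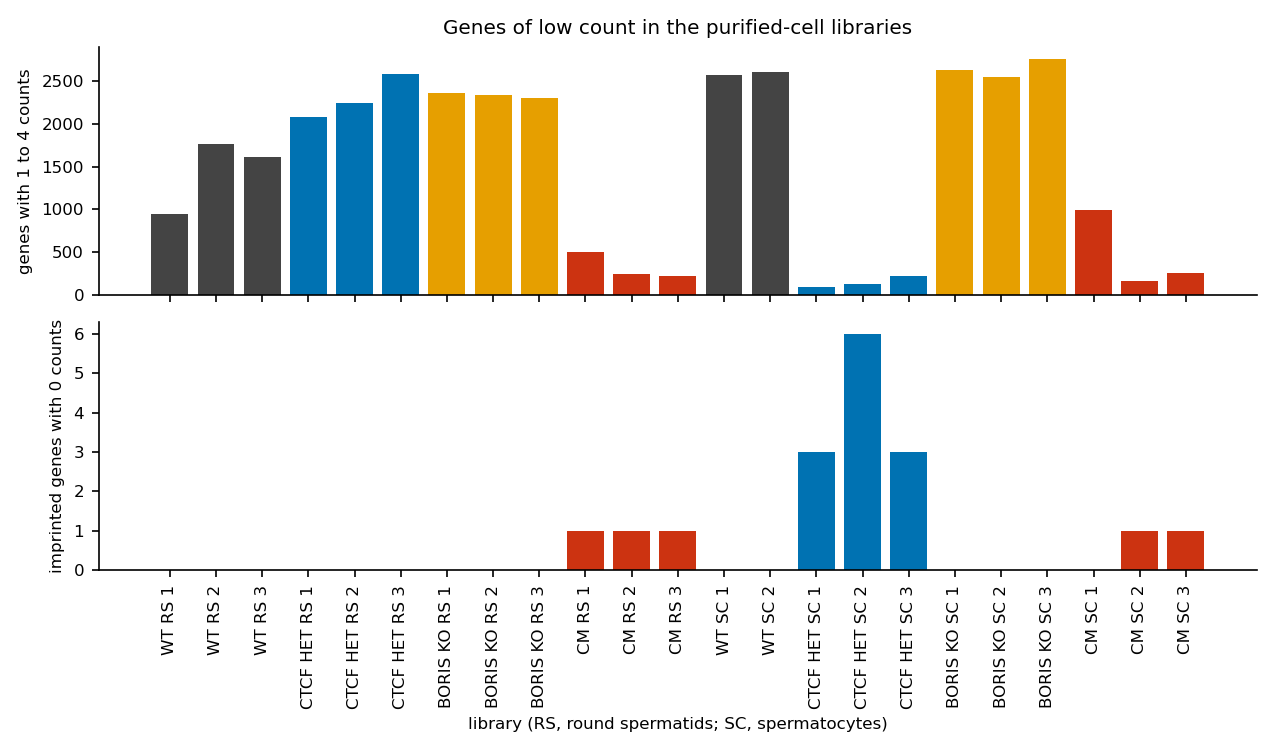
The upper bars give the number of genes with 1 to 4 counts in each of the 23 purified-cell libraries, the lower bars the number of the 10 imprinted genes with 0 counts, coloured by genotype. CM replicates 2 and 3 of both cell types and the 3 spermatocyte CTCF HET libraries hold 100 to 255 such genes, and spermatocyte CTCF HET replicate 2 lacks counts for 6 of the imprinted genes.

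CTCF occupied 7 of the 10 loci in WT testis. Within 10 kb of each gene, 17 of the 34625 WT CTCF peaks were listed: 6 upstream of Cdkn1c, 3 in Mest, 3 in Grb10, 2 at Rasgrf1 and 1 each at Peg3, Igf2 and Plagl1. None was listed within 10 kb of H19, Dlk1 or Igf2r. BORIS had 9 peaks in the same windows, 3 upstream of Cdkn1c and 1 each at Mest, Peg3, Igf2, Rasgrf1, Grb10 and Igf2r. Of the 17 CTCF peaks 7 overlapped a BORIS peak (41.2%), against 17.5% of all WT CTCF peaks. Each list is 1 set of peaks for an antibody and genotype, so none of these counts has a replicate check.

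The sequences below show where the 14-letter CTCF core consensus lies under the summits that the following results turn on. Each is the 201 bases around a peak summit on the plus strand of mm9, and the capitals mark the best place of the consensus, on either strand, with at most 1 mismatch. The 3 high Cdkn1c peaks bound both proteins and were listed again in CM, and the Rasgrf1 peak bound both and was not listed in CM.
Cdkn1c, CTCF, chr7:150649873-150650073: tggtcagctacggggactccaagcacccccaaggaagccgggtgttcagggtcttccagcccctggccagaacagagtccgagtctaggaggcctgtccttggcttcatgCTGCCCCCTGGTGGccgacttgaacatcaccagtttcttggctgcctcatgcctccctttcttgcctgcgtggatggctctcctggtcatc
Cdkn1c, CTCF, chr7:150652326-150652526: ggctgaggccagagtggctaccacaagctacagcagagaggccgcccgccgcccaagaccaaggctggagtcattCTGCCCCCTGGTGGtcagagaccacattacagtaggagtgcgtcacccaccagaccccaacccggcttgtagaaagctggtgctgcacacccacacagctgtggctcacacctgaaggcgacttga
Cdkn1c, CTCF, chr7:150655969-150656169: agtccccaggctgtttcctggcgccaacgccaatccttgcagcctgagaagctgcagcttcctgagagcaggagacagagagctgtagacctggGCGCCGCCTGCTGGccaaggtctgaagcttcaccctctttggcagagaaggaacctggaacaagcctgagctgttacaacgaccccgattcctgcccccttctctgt
Rasgrf1, CTCF, chr9:89922662-89922862: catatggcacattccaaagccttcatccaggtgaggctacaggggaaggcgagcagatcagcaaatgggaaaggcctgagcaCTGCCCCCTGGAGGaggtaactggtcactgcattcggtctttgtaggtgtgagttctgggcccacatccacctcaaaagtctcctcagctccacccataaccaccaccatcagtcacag

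The consensus stood under 7 of the 17 CTCF summits of these loci, against 54.7% of all WT CTCF summits, and 2 of them, both upstream of Cdkn1c, held it without a mismatch, against 18.1% of all. Over the whole list 77.6% of the CTCF summits shared with BORIS held it, against 49.9% of those without BORIS. Under BORIS summits it stood at 4 of 9, against 68.3% of all 7652. The 3 Cdkn1c matches, the Grb10 match and the Rasgrf1 match lay on the minus strand. The highest Grb10 peak, the Peg3 peak and the highest Mest peak held no match in their 201 bases, which says only that these letters are not in those windows.

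Peak height and BORIS went together at these loci. All WT CTCF peaks were divided by height into 4 classes of equal size. Of the 17 peaks 6 fell in the highest class and all 6 overlapped BORIS, the 1 peak in the next class overlapped BORIS too, and none of the 10 in the lower classes did. Over all WT CTCF peaks the share with BORIS was 5.2%, 9.6%, 16.0% and 39.4% from the lowest to the highest class. A CTCF peak was listed again in CM for 9 of the 17 and not for 8 (47.1%, against 43.9% of all). In the same order of classes, the number not listed in CM was 4 of 5, 3 of 5, 0 of 1 and 1 of 6, and the shares over all peaks were 88.1%, 59.0%, 23.7% and 4.8%. Heights are not comparable between the WT and CM lists, whose medians were 491 and 316.

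Upstream of Cdkn1c (chr7:150644255-150646955, minus strand), 3 high peaks with BORIS lay 3018, 5471 and 9114 bases before the start, with heights of 3675, 3267 and 2336, and all 3 were listed in CM. Between them 3 low peaks without BORIS, of heights 110, 139 and 295, were not listed in CM. In Grb10 (chr11:11830511-11938686, minus strand) the peak of height 3332 lay 471 bases from an internal annotated start and overlapped BORIS, the CM peak and H3K4me3 peaks of WT and CM. The other Grb10 peaks were intronic, of heights 174 and 151, and the first of these was listed in CM.

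In Peg3 (chr7:6656603-6683132, minus strand) an intronic CTCF peak of height 2371, 2872 bases after the start, overlapped BORIS and was listed in CM. Mest (chr6:30673547-30698457, plus strand) had 3 CTCF peaks within 1 kb of internal annotated starts. The middle one, of height 909, overlapped a BORIS peak of height 334 and a CM peak, while the others, of heights 122 and 239, overlapped neither. At Rasgrf1 (chr9:89804613-89921814, plus strand) a peak of height 1625 lay just downstream of the gene, overlapped BORIS and was the 1 peak of the highest class not listed in CM. A second, intronic Rasgrf1 peak of height 242 was not listed in CM either, and the CM list held instead an intronic peak of height 123 that WT lacked. Plagl1 (chr10:12810497-12851500, plus strand) had an upstream peak of height 229, without BORIS, that was listed in CM.

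**Figure D2:**
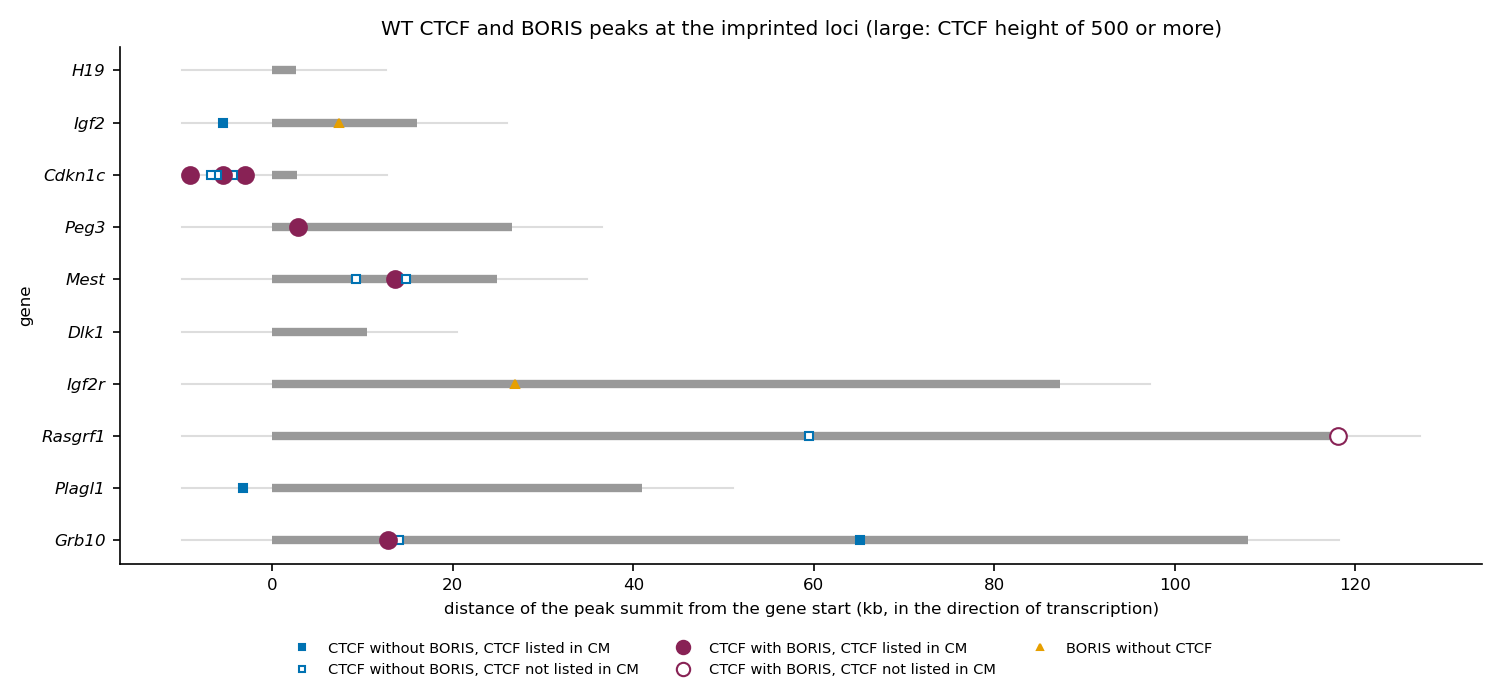
Each line is a locus with 10 kb on each side (grey bar, the gene), on an axis of kb from the gene start in the direction of transcription; circles are WT CTCF summits with BORIS, squares those without, triangles BORIS without CTCF, and open symbols mark CTCF peaks with no overlapping CM peak. All 7 shared sites except the one downstream of Rasgrf1 are filled, and H19, Dlk1 and Igf2r carry no CTCF symbol.

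At Igf2 (chr7:149836673-149852721, minus strand) the proteins lay apart. CTCF had a low peak 5523 bases upstream, of height 215, listed in CM, and BORIS had a peak of height 91 inside the gene, without CTCF. For H19 (chr7:149761434-149764048, minus strand) the lists used here gave no peak of either protein within 10 kb. The nearest CTCF summits were 22.2 kb downstream (height 121) and 32.6 kb upstream, between H19 and Igf2 (chr7:149796305-149796868, height 2496). The latter lacked BORIS and was listed in CM. For Dlk1 (chr12:110691033-110701546, plus strand) the nearest CTCF summit lay 14.9 kb upstream, with a height of 2625, a BORIS peak and a CM peak. For Igf2r (chr17:12875272-12962530, minus strand) it lay 41.0 kb upstream (height 1582), while a BORIS peak of height 73 without CTCF stood inside the gene, where the antisense RNA Airn is annotated too. The depth behind the peak lists is unknown, and an unlisted peak is only one that the lists used here do not hold.

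Within the same windows H3K4me3 had 13 peaks in WT and 10 in CM, of 34347 and 20432 in the lists, and RNA polymerase II had 1 and 4, of 25192 and 28407. At the Peg3 start the H3K4me3 peak spanned 576 bases in WT (score 54.58) and 3983 bases in CM (score 477.52), and polymerase II peaks numbered 1 in WT and 2 in CM. Polymerase II peaks at the starts of Plagl1 (score 54.89) and Igf2r (score 84.99) were listed in CM only. Dlk1 and Rasgrf1 had 1 and 3 H3K4me3 peaks in WT and none in CM, and Igf2r had 2 in WT and 5 in CM. H19, Igf2 and Mest had no H3K4me3 or polymerase II peak in either genotype. Scores of the WT and CM lists were not scaled to each other, and the median H3K4me3 peak was 728 bases wide in WT and 1598 in CM.

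In WT whole testis Cdkn1c, an inhibitor of cyclin-dependent kinases, was the most abundant of the 10 genes at 13.5 ± 0.878 CPM per kb of exon (SD, n = 3). Grb10, an adaptor that dampens insulin and growth factor signalling, followed at 3.43 ± 0.547 CPM per kb, and Igf2r, which carries Igf2 to lysosomes, at 2.4 ± 0.942. The libraries of Grb10 and Igf2r overlapped. Rasgrf1 (0.975 ± 0.339) and Igf2 (0.859 ± 0.559) came next and overlapped each other. Mest (0.25), Peg3 (0.208), Plagl1 (0.148), H19 (0.121) and Dlk1 (0.0912 CPM per kb) were low, and each overlapped the next in this order.

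The order differed in the purified WT cells, whose poly(A) libraries are not on the scale of whole testis. In round spermatids Rasgrf1 led at 3.61 ± 0.316 CPM per kb, above Igf2 (2.05 ± 0.537), Grb10 (2.01 ± 0.369) and Cdkn1c (1.78 ± 0.471), which overlapped one another. The other genes were at 0.234 (Igf2r) or lower, down to 0.0291 CPM per kb for Dlk1, each overlapping the next. In spermatocytes Grb10 led at 8.69 ± 0.0587 CPM per kb (n = 2), followed by Cdkn1c (0.942) and Igf2 (0.786), which overlapped, by Mest (0.337) and by Peg3 (0.219). Igf2r (0.0867), Rasgrf1 (0.0806), Plagl1 (0.0357), H19 (0.0321) and Dlk1 (0.00897 CPM per kb) were the lowest.

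Between WT round spermatids and WT spermatocytes 7 of the 10 genes differed by edgeR at an adjusted p under 0.05, the rule for every call here. Over all genes tested 70% were called, 35.8% higher and 34.2% lower in round spermatids, and among the 10 imprinted genes 4 were higher and 3 lower. Their median log2 difference was 1.11, against 0.02 over all genes tested. The values in this comparison are CPM on 1 scale for both cell types. On that scale the groups of 7 of the 10 genes did not overlap, as was so for 81.8% of all genes tested.

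Rasgrf1, which couples calcium signals to Ras, had 16.1, 14.2 and 16.4 CPM in round spermatids and 0.297 and 0.416 CPM in spermatocytes. The groups were far apart, at 15.6 ± 1.21 (n = 3) against 0.357 ± 0.0843 CPM (n = 2), a ratio of 43.6 (log2 difference 5.44 ± 0.23 SE, adjusted p = 1.0e-06). Ctcfl showed a ratio of 53.2 in the same libraries (3.48 against 0.0654 CPM). Igf2 had 7.27, 12.9 and 10.8 CPM in round spermatids and 4.34 and 3.76 in spermatocytes. All round spermatid values lay above both spermatocyte values (log2 1.34 ± 0.26, adjusted p = 0.00281). Igf2r had 2.29, 2.09 and 1.65 CPM against 0.749 and 0.785, again without overlap (log2 1.39 ± 0.28, adjusted p = 0.00298). With all groups in 1 fit the call was lost (adjusted p = 0.143).

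Cdkn1c had 2.21, 3.95 and 3.27 CPM in round spermatids and 1.93 and 1.49 in spermatocytes, groups set apart by a narrow margin (log2 0.87 ± 0.31, adjusted p = 0.0355). This call was lost without either spermatocyte library (adjusted p = 0.0842 and 0.217), without round spermatid replicate 2 (0.0948) or replicate 3 (0.0822), and with all groups in 1 fit (0.13). Grb10 went the other way, with 19.8, 16.2 and 14.2 CPM in round spermatids and 75.2 and 74.1 in spermatocytes, 4.45 times as much (log2 -2.15 ± 0.15, adjusted p = 1.3e-05). Peg3, a zinc finger gene linked to cell survival and metabolism, had 0.659, 0.79 and 0.574 against 2.69 and 2.77 CPM (log2 -2.02 ± 0.26, adjusted p = 0.000289, and 0.0854 with all groups in 1 fit). Mest, which encodes a hydrolase-like membrane protein, had 0.196, 0.395 and 0.574 against 1.25 and 1.24 CPM (log2 -1.71 ± 0.46, adjusted p = 0.0129). Neither gene's groups overlapped, and the Mest call was lost without spermatocyte replicate 1 (adjusted p = 0.0691) or 2 (0.0683) and with all groups in 1 fit (0.144).

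The other 3 genes overlapped between the cell types. H19 had 0.494, 0.0197 and 0.628 CPM in round spermatids and 0.0832 and 0.0595 in spermatocytes (log2 2.41 ± 1.16, adjusted p = 0.0999). Replicate 2 of the round spermatids, with 1 count, was far below the others, and without it the difference was called (log2 2.95, adjusted p = 0.00487). Dlk1 (0.151 ± 0.148 against 0.0476 CPM) and Plagl1 (0.266 ± 0.102 against 0.244 ± 0.0422 CPM) were not called. In the lowest of these libraries Dlk1 rested on 1 count.

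**Figure D3:**
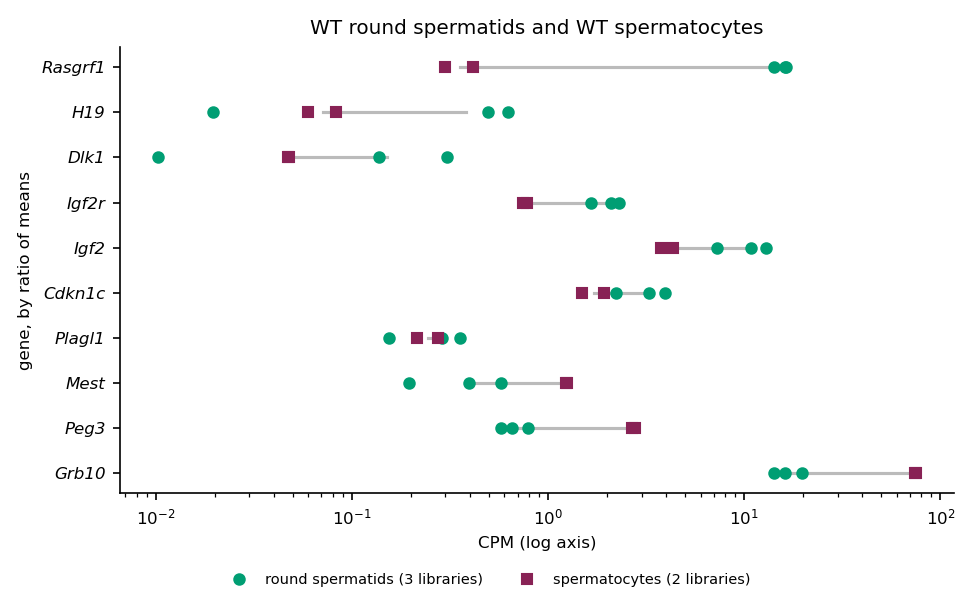
Points give the CPM of each WT round spermatid library (circles, 3) and WT spermatocyte library (squares, 2) on a log axis for the 10 genes in the order of their ratio, with a line between the group means. Rasgrf1 at the top is separated by a ratio of 43.6 and Grb10 at the bottom by 4.45 in the other direction.

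In whole testis of the single mutants no imprinted gene was called. In CTCF HET none of the 9 genes tested was called, where 0.00621% of all genes were. Dlk1 came nearest, at 0.785, 0.794 and 1.02 CPM against 0.396, 0.53 and 0.622 in WT, without overlap but with a log2 difference of 0.78 ± 0.40 and an adjusted p of 1.0. Groups lay apart for 7.9% of all genes tested. None of the 9 imprinted genes had an unadjusted p under 0.05, as did 2.63% of all genes, and DESeq2 called none either. The median log2 difference of the 9 was 0.07, against 0.01 over all genes tested. In BORIS KO none of 8 was called, where 0.0551% of all genes were. Here 2 had an unadjusted p under 0.05, as did 16.6% of all genes, DESeq2 called none, and the median was 0.26, against 0.03. Those 2 were Igf2r, with 34.1, 39.2 and 35.7 CPM against 32.9, 17.7 and 17.3 in WT (log2 0.70 ± 0.25, adjusted p = 0.241), and Peg3, with 3.46, 5.62 and 4.07 against 2.35, 3.05 and 2.93 CPM (log2 0.67 ± 0.28, adjusted p = 0.282). The groups did not overlap for either gene, nor for 23.6% of all genes tested.

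In CM whole testis Igf2 and Peg3 rose. These were 2 of the 8 genes tested (25%) where 25.2% of all genes were called and 16.4% were called higher. The calls over all genes were 2693 higher and 1442 lower, or 4946 and 477 when scaled by library totals, which moved the median of all genes to 0.43. The median log2 difference of the 8 was 0.61, against 0.00 over all genes. The groups of 4 of the 8 did not overlap, as was so for 48.5% of all genes tested. Igf2 had 49.5, 8.42 and 18.4 CPM in CM and 8.25, 2.78 and 3.11 in WT. Replicate 1 was the highest library of each genotype, and the lowest CM value barely exceeded the highest WT value. The means were 25.4 ± 21.4 and 4.72 ± 3.07 CPM (log2 2.39 ± 0.66, adjusted p = 0.0321). Without CM replicate 1 the difference was 1.50 and the call was lost (adjusted p = 0.0521), as it was without CM replicate 3 (0.0665), WT replicate 2 (0.107) or WT replicate 3 (0.104).

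Peg3 had 9.7, 4.57 and 4.8 CPM in CM and 2.35, 3.05 and 2.93 in WT, with no overlap (log2 1.20 ± 0.37, adjusted p = 0.0447). Without CM replicate 1 the difference was 0.79 (adjusted p = 0.1), and the call was also lost without CM replicate 3 (0.0715) or WT replicate 1 (0.131), 2 (0.118) or 3 (0.113), and with RLE scaling (0.0501). The H3K4me3 peak at the Peg3 start was wider in CM than in WT (3983 against 576 bases). Peaks at other starts were wider in CM too, but by less. At the starts of Cdkn1c, Plagl1, Grb10 and Igf2r the widths were 1611, 883, 571 and 967 bases in WT. In CM they were 2574, 1306, 1275 and 1808 bases. The CM peak at Cdkn1c also covered a second WT peak, of 527 bases. Same-numbered whole testis libraries deviated together, and with the replicate number as a block 4 of the 8 genes were called, Igf2 and Peg3 with Igf2r and Cdkn1c, where 43% of all genes were.

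Igf2r had 56.0, 32.2 and 39.4 CPM in CM and 32.9, 17.7 and 17.3 in WT. The groups overlapped only through WT replicate 1 (log2 0.89 ± 0.33, adjusted p = 0.0733, with the block 0.0047). It was called without WT replicate 1 (adjusted p = 0.0466) or CM replicate 2 (0.0488). Cdkn1c was the only gene of the 8 besides Rasgrf1 with a lower mean in CM, at 4.77, 15.1 and 16.6 CPM against 25.5, 24.6 and 27.9. All CM values lay under all WT values, and replicate 1 was the lowest (log2 -1.12 ± 0.43, adjusted p = 0.0812, with the block 0.00975). DESeq2 called it lower (log2 -1.16, adjusted p = 0.0301). Without CM replicate 1 the difference was -0.69 (adjusted p = 0.0442). Grb10 had 54.8, 38.3 and 42.7 CPM against 34.3, 34.3 and 25.6 (log2 0.51 ± 0.24, adjusted p = 0.139). Its groups did not overlap.

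The remaining genes overlapped between CM and WT whole testis, with the exception of H19. Mest was at 1.51 ± 0.343 against 0.983 ± 0.304 CPM, Plagl1, a zinc finger gene that restrains the cell cycle, at 1.57 ± 0.588 against 1.08 ± 0.503, and Rasgrf1 at 2.9 ± 0.841 against 4.61 ± 1.6 (n = 3 each). None was called. H19 and Dlk1 were under the filter on low counts and were not tested. H19 had 55, 12 and 6 counts in CM and 10, 2 and 5 in WT, which is 1.33, 0.732 and 0.472 against 0.283, 0.133 and 0.445 CPM. Dlk1, a membrane ligand that resembles Notch ligands, was at 0.772 ± 0.319 against 0.516 ± 0.114 CPM.

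The cell makeup of these preparations differed between CM and WT. Leydig cell markers summed to 1738 to 3438 CPM in CM and 355 to 558 in WT, with 4 of 6 genes called higher and Cyp17a1 the most abundant (1113 to 2133 against 223 to 297 CPM). Sertoli cell markers summed to 614 to 1245 against 244 to 384 CPM (3 of 5 called higher, Clu the most abundant). Stromal and peritubular markers summed to 306 to 592 against 91.7 to 159.8 CPM (4 of 6 higher, Dcn the most abundant), and endothelial markers to 11.7 to 23.6 against 8.15 to 8.45. Of 6 macrophage markers 4 were called higher while their sum was 454 to 546 against 471 to 652 CPM. Spermatogonial markers summed to 116 to 400.4 against 52.6 to 67.1 CPM, and round spermatid markers to 729 to 1408 against 2240 to 2303 (3 of 6 lower). Elongating spermatid markers summed to 3557 to 11185 against 12014 to 19801 CPM. In BORIS KO the Leydig cell sum was 653 to 1410 CPM. The part of these cells in the values of Igf2, Peg3, Igf2r, Cdkn1c and H19 was not tested. In such mixed samples fewer cells of a type and less RNA in each cell cannot be told apart.

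CM and BORIS KO share the loss of Boris and differ in the Ctcf copy. None of 9 imprinted genes was called between them by edgeR, where 0.006% of all genes were. An unadjusted p under 0.05 was found for 2 of them and for 21.6% of all genes, and DESeq2 called Igf2 alone (adjusted p = 0.0378) and 7.21% of all genes. The largest differences were those of Igf2, with 49.5, 8.42 and 18.4 against 10.2, 7.3 and 7.21 CPM (log2 1.59 ± 0.55, adjusted p = 0.163), and Cdkn1c, with 4.77, 15.1 and 16.6 against 19.2, 34.2 and 21.7 CPM (log2 -1.08 ± 0.45, adjusted p = 0.216). The Igf2 groups overlapped and those of Cdkn1c did not, as with 27.3% of all genes tested. With the replicate number as a block Cdkn1c was called (log2 -1.22, adjusted p = 0.0421), and without CM replicate 2 Igf2 was called (log2 2.04, adjusted p = 0.0388).

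**Figure D4:**
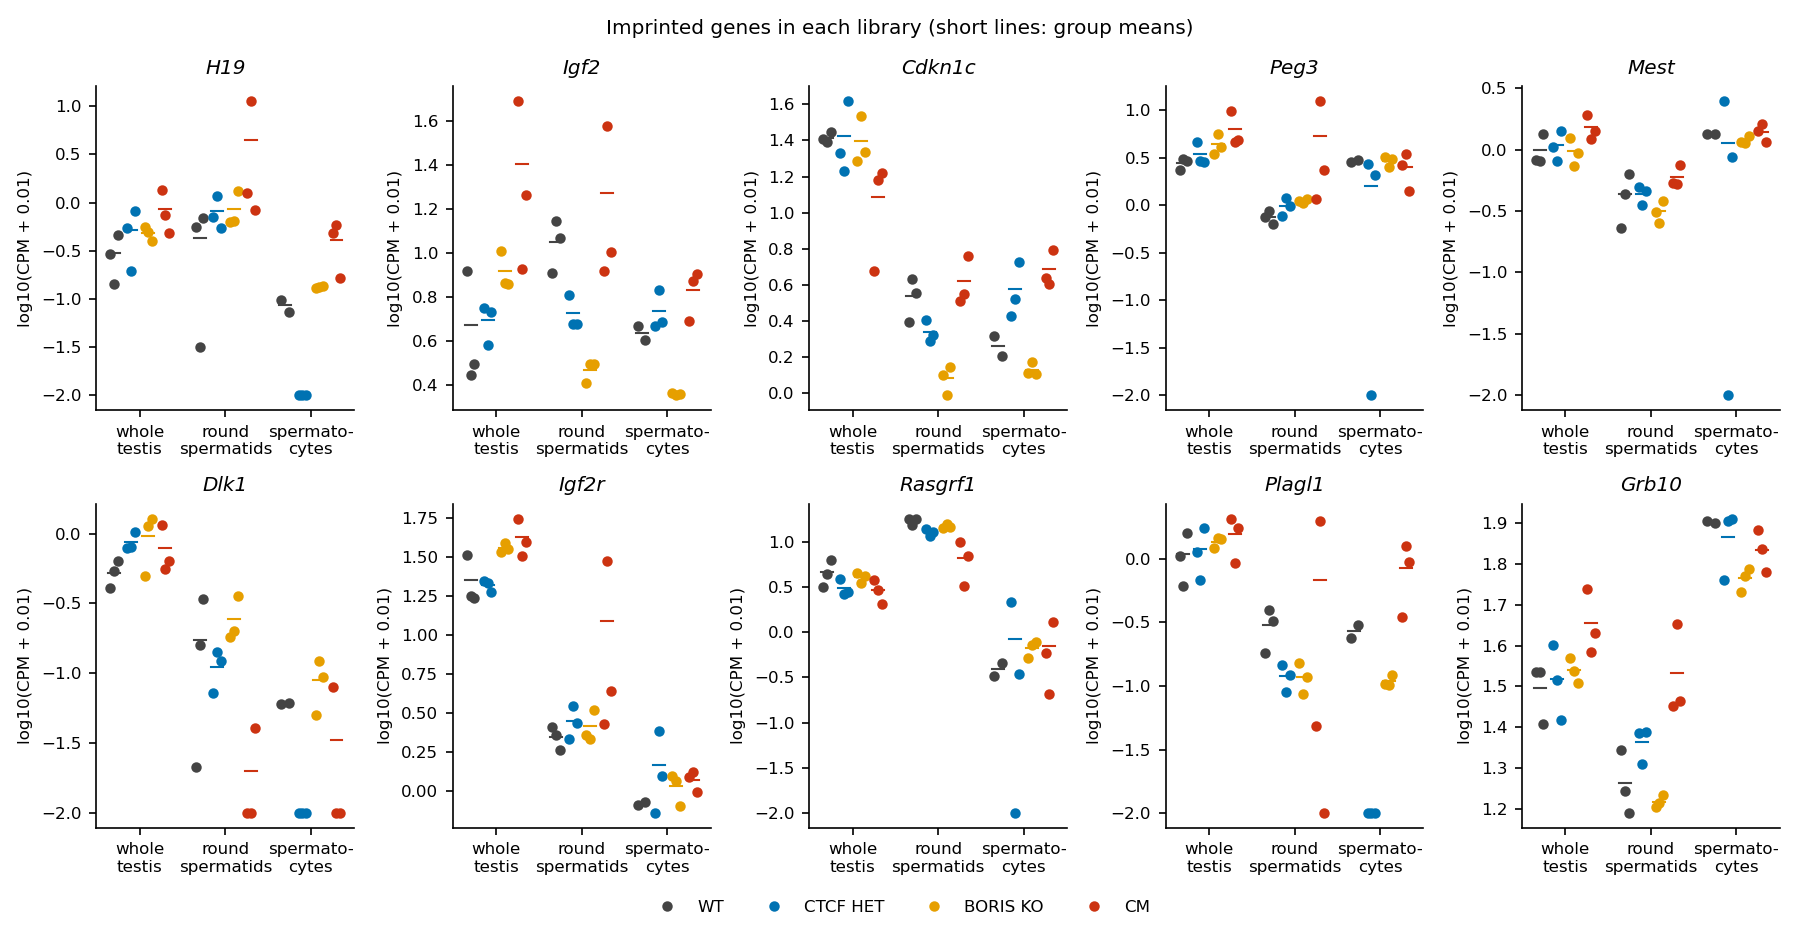
Each panel gives log10(CPM + 0.01) of a gene in every library of the 3 preparations, coloured by genotype, with short lines at group means; values at -2 are libraries with 0 counts, and the scales of the preparations are separate. Igf2 is high in CM whole testis and low in BORIS KO round spermatids and spermatocytes, and CM round spermatid replicate 2 stands above the others for H19, Igf2, Peg3 and Igf2r.

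In round spermatids Igf2 fell in both single mutants. The CTCF HET libraries held 6.44, 4.74 and 4.74 CPM and those of BORIS KO 2.56, 3.11 and 3.1, against 8.11, 14.0 and 11.7 in WT. The 3 genotypes did not overlap, and BORIS KO was the lowest. The log2 difference from WT was -1.10 ± 0.23 in CTCF HET (adjusted p = 0.0133) and -1.98 ± 0.23 in BORIS KO (adjusted p = 0.000118), the latter from 11.3 ± 2.95 to 2.92 ± 0.313 CPM. The BORIS KO call held when any 1 of the 6 libraries was left out, with differences of -2.17 to -1.80. The CTCF HET call was lost without WT replicate 2 (adjusted p = 0.0579), WT replicate 3 (0.0559) or CTCF HET replicate 2 (0.0605), and with all groups in 1 fit (log2 -1.08, adjusted p = 0.244), where 2.96% of all genes were called. Both comparisons use the same WT libraries.

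Cdkn1c had 1.25, 0.964 and 1.39 CPM in BORIS KO, 2.52, 1.93 and 2.1 in CTCF HET and 2.47, 4.28 and 3.56 in WT. BORIS KO lay under WT throughout and its fall was called (log2 -1.54 ± 0.27, adjusted p = 0.00125, and -1.74 to -1.37 with each library left out in turn). CTCF HET overlapped WT by a narrow margin (log2 -0.66 ± 0.25, adjusted p = 0.0822). Without WT replicate 1 it was called (log2 -0.86, adjusted p = 0.00681), as was Grb10 (log2 0.46, adjusted p = 0.0174). Rasgrf1 had 13.8, 11.7 and 12.8 CPM in CTCF HET and 18.0, 15.3 and 17.9 in WT, a small fall without overlap (log2 -0.43 ± 0.13, adjusted p = 0.0413). That call was lost without WT replicate 2 (0.0807) or 3 (0.144) and without CTCF HET replicate 1 (0.102), 2 (0.115) or 3 (0.106), with all groups in 1 fit (0.519) and when scaled by library totals (0.0789). In BORIS KO Rasgrf1 was at 14.9 ± 0.784 CPM (log2 -0.23 ± 0.12, adjusted p = 0.138).

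These calls were 2 of the 8 genes tested in CTCF HET (25%), where 22.3% of all genes were called and 12.8% were called lower, and 2 of 10 in BORIS KO (20%), where 55.8% were called and 29% were called lower. Scaled by library totals, calls over all genes were 2211 higher and 1552 lower in CTCF HET, in place of 1449 and 1956, and 6082 and 2809 in BORIS KO, in place of 4162 and 4496. The medians were 0.16 and -0.20, against 0.00 and -0.01 over all genes. Groups did not overlap for 2 of the 8 and 4 of the 10 genes, against 42% and 63.8% of all genes tested. Plagl1 was at 0.142, 0.0761 and 0.107 CPM in BORIS KO and 0.136, 0.0794 and 0.112 in CTCF HET, all under the 0.172, 0.385 and 0.313 of WT. It rested on 5 to 18 counts a library and was tested in BORIS KO alone (log2 -1.42 ± 0.55, adjusted p = 0.0533, and 0.0142 without WT replicate 1). H19, Peg3, Mest, Igf2r, Grb10 and Dlk1 were called in neither, although Peg3 was called in BORIS KO when scaled by library totals (log2 0.88, adjusted p = 0.021). H19 was at 0.798 ± 0.328 CPM in CTCF HET and 0.852 ± 0.396 in BORIS KO, against 0.419 ± 0.351 in WT (n = 3 each).

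Leydig, Sertoli and stromal cell markers were low in these round spermatid libraries, while macrophage markers were not. The macrophage sum was 84.2 to 97.1 CPM in WT, 61.7 to 68.9 in CTCF HET and 86.9 to 107.0 in BORIS KO. Most of it was Aif1, at 81.7 to 94.7, 58.5 to 66.5 and 83.1 to 105.0 CPM in the same order. Leydig cell markers summed to 1.16 to 1.37 CPM in WT, 0.993 to 1.5 in CTCF HET and 1.22 in each BORIS KO library, and Sertoli cell markers, in the same order, to 1.37 to 1.76, 1.43 to 2.07 and 2.5 to 2.74 CPM. Stromal markers, led by Col1a1, were at 3.32 to 6.16 CPM in WT, 5.65 to 6.43 in BORIS KO and 13.1 to 14.5 in the CTCF HET libraries. Spermatocyte markers summed to 1478 to 1864 CPM in WT, 1060 to 1492 in CTCF HET libraries and 765 to 837 in BORIS KO libraries, with 4 of 6 called lower in BORIS KO. Round spermatid markers summed, in the same order, to 1779 to 1896, 1482 to 1559 and 1464 to 1526 CPM. Of these 6 markers 4 were called lower in each single mutant and 1 was called higher in BORIS KO. The part of these markers in the fall of Igf2 and Cdkn1c was not tested.

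**Figure D5:**
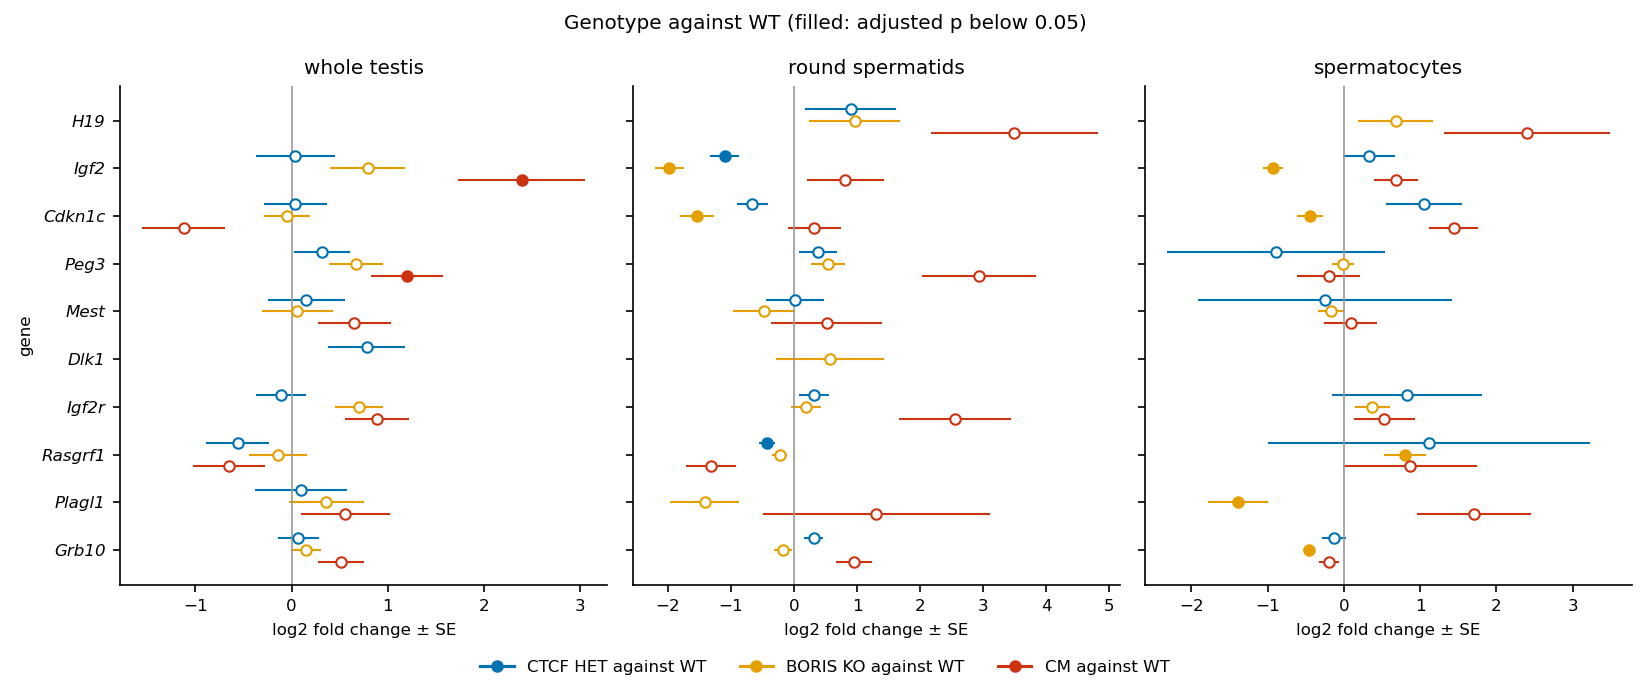
The log2 difference from WT with its SE is plotted for each gene and genotype in the 3 preparations, filled where the adjusted p is below 0.05; genes under the low-count filter, and Plagl1 in CTCF HET spermatocytes, which had 0 counts, are left out. Filled points are Igf2 and Peg3 in CM whole testis, Igf2, Cdkn1c and Rasgrf1 in round spermatids of the single mutants, and 5 genes in BORIS KO spermatocytes.

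In CM round spermatids none of 9 genes was called by edgeR, where 0.00654% of all genes were. Of the 9, 5 had an unadjusted p under 0.05, as did 20.5% of all genes, and DESeq2 called 4 and 11.7% of all genes. The median log2 difference was 0.95, against 0.00 over all genes. CM replicate 2 was far above the other CM libraries for several genes. H19 had 11.4 CPM in that library and 1.25 and 0.825 in the others, against 0.552, 0.0214 and 0.684 in WT. Igf2 had 38.0 CPM there and 8.25 and 10.1 in the others, Peg3 12.5 against 1.16 and 2.32, and Igf2r 29.7 against 2.65 and 4.37. Plagl1 had 1.97 CPM in that library and 0.0387 and 0 in the others. H19, Peg3 and Igf2r did not overlap WT, while Igf2 and Plagl1 did. With Rasgrf1 and Grb10, 5 of the 9 genes lay apart from WT, against 29.2% of all genes tested.

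The CM log2 differences were 3.49 ± 1.32 for H19 (adjusted p = 0.205), 2.93 ± 0.90 for Peg3 (0.174), 2.55 ± 0.89 for Igf2r (0.185) and 0.81 ± 0.61 for Igf2 (0.505). Without replicate 2 they were 1.31, 1.25, 0.68 and -0.28 and none was called, while without replicate 1 Peg3 was called (log2 3.43, adjusted p = 0.05, below the threshold before rounding). In that library the Sertoli, Leydig and stromal marker sums were 1.02, 1.02 and 5.79 CPM, and the spermatogonial sum was 379 CPM against 37.4 and 62.9 in the other CM libraries, with Stra8 at 217 CPM. The part of these cells in its values was not tested. It is also 1 of the 7 libraries with few genes of low count.

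Rasgrf1 and Grb10 moved less with that library. Rasgrf1 had 9.87, 3.21 and 6.96 CPM in CM and 18.0, 15.3 and 17.9 in WT, with no overlap (log2 -1.32 ± 0.40, adjusted p = 0.174, DESeq2 0.02). Grb10 had 28.4, 45.0 and 29.1 CPM against 22.1, 17.6 and 15.5, also with no overlap (log2 0.95 ± 0.28, adjusted p = 0.171, DESeq2 0.0232). Without replicate 2 they were at -1.01 (adjusted p = 0.0906) and 0.66 (0.164). Spermatocyte markers summed to 1797 to 2835 CPM in the CM libraries and 1478 to 1864 in WT. The round spermatid sums were 854 to 1451 and 1779 to 1896 CPM. The part of this cell makeup in the values of Rasgrf1 and Grb10 was not tested. Cdkn1c was at 4.15 ± 1.36 against 3.43 ± 0.909 CPM and Mest at 0.592 ± 0.122 against 0.424 ± 0.204, and both overlapped WT. Dlk1 had 0, 0 and 2 counts and was not tested.

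In spermatocytes of BORIS KO 5 of the 9 genes tested were called (55.6%), 4 lower and 1 higher, where 57.2% of all genes were called, 28.1% lower and 29.1% higher. Scaled by library totals, calls over all genes were 5962 higher and 2370 lower, in place of 4175 and 4032. The median log2 difference of the 9 was -0.17, against 0.02. Igf2 had 2.29, 2.24 and 2.28 CPM against 4.62 and 4.02 in WT, a tight and separate group (log2 -0.93 ± 0.13, adjusted p = 5.3e-05). Grb10, the most abundant of the 10 here, had 53.9, 59.0 and 61.3 CPM against 80.0 and 79.2 (log2 -0.46 ± 0.07, adjusted p = 8.5e-05). Both calls held when any 1 of the 5 libraries was left out, at -1.03 to -0.82 for Igf2 and -0.50 to -0.41 for Grb10. With all groups in 1 fit, where 14.5% of all genes were called, none of the 5 genes was called (adjusted p = 0.0554 for Igf2, 0.0661 for Grb10).

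The other 3 calls rested on single libraries. Plagl1 had 0.0936, 0.0922 and 0.112 CPM against 0.228 and 0.293 (log2 -1.39 ± 0.39, adjusted p = 0.00917), and lost the call without WT replicate 2 (0.0925). Cdkn1c had 1.28, 1.47 and 1.26 against 2.05 and 1.59 CPM (log2 -0.44 ± 0.17, adjusted p = 0.0464). It lost the call without WT replicate 1 (0.395) or BORIS KO replicate 2 (0.057) or 3 (0.128), and when scaled by library totals (0.293). Rasgrf1 had 0.508, 0.707 and 0.771 against 0.316 and 0.445 CPM (log2 0.80 ± 0.28, adjusted p = 0.0285). It lost the call without WT replicate 1 (0.236) or BORIS KO replicate 2 (0.0778) or 3 (0.0952). None of the 5 overlapped WT, and DESeq2 called Igf2 and Grb10 alone. Groups lay apart for 7 of the 9 genes tested and for 72.8% of all genes. H19, Peg3, Mest and Igf2r were not called. Spermatocyte markers summed to 3645 to 3745 CPM in BORIS KO and 4958 to 5800 in WT (4 of 6 lower), while Leydig and Sertoli sums were 7.6 to 7.9 and 3.43 to 13.9 against 9.19 to 9.76 and 8.24 to 8.46 CPM. Their part in these values was not tested.

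In CTCF HET spermatocytes none of 8 genes was called by edgeR, where 15.5% of all genes were. Of the 8, Plagl1 alone had an unadjusted p under 0.05, as did 30.2% of all genes, with its CTCF HET libraries all at 0, and it was called without CTCF HET replicate 3 (adjusted p = 0.0386). DESeq2 called none of the 8 and 22.1% of all genes. The median was 0.10, against -0.09 over all genes tested. All 3 libraries are among those with few genes of low count. H19, Dlk1 and Plagl1 had 0 counts in all 3, which allows up to 0.0529 to 0.0634 CPM in a library by 3 counts, and in WT they had 5 to 7, 4 and 18 to 23 counts. Replicate 2 had 0 counts of Peg3, Mest and Rasgrf1 too, between values of 2.68 and 2.07, 2.49 and 0.866, and 2.15 and 0.338 CPM in replicates 1 and 3. Limits of this kind cover counting error alone, and whether they hold in libraries with so few low counts was not tested. Igf2, at 4.62, 6.78 and 4.86 CPM, Cdkn1c, at 2.68, 3.32 and 5.35, and Grb10, at 57.7, 80.4 and 81.3, were present in every library. Their log2 differences from WT were 0.33 ± 0.34, 1.05 ± 0.50 and -0.13 ± 0.16.

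In CM spermatocytes none of 9 genes was called, where 0.604% of all genes were. Cdkn1c alone had an unadjusted p under 0.05, as did 29.8% of all genes, and DESeq2 called it alone (adjusted p = 0.00128) and 21.9% of all genes. The median was 0.68, against 0.01. Cdkn1c had 4.36, 3.99 and 6.21 CPM against 2.05 and 1.59 in WT, every CM library above both (log2 1.44 ± 0.32, adjusted p = 0.0658). Igf2 had 4.88, 7.42 and 8.02 against 4.62 and 4.02 CPM (log2 0.68 ± 0.29, adjusted p = 0.173), and H19 0.476, 0.572 and 0.153 against 0.0885 and 0.0636 (log2 2.40 ± 1.09, adjusted p = 0.196). Neither overlapped WT. Plagl1 had 0.337, 1.25 and 0.933 CPM against 0.228 and 0.293, also without overlap (log2 1.71 ± 0.75, adjusted p = 0.182). The groups of 6 of the 9 genes did not overlap, as was so for 54.2% of all genes tested.

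Replicate 1, the CM library with many genes of low count, moved this comparison. Without it Cdkn1c (log2 1.53, adjusted p = 0.0155), Igf2 (0.88, 0.0164) and Plagl1 (2.10, 0.0309) were called. These were 3 of 9 genes, where 38.9% of all genes were called without it. Sertoli and Leydig sums in CM were 4.41 to 6.86 and 9.41 to 11.7 CPM.

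Other imprinted genes gave the setting for these values. From a list of 64, 61 were in the tables. In CM whole testis 9 of 38 tested were called (23.7%), all higher, near the 25.2% of all genes, with a median of 0.20. They were led by Meg3 and Rian, noncoding RNAs of the cluster of Dlk1. Meg3 had 40.9, 14.8 and 16.4 CPM in CM against 4.66, 5.37 and 6.13 in WT (log2 2.15 ± 0.42, adjusted p = 0.0165), and Rian 6.65, 6.89 and 9.76 against 2.74, 2.39 and 3.29 (log2 1.45 ± 0.30, adjusted p = 0.0175). Gnas, which encodes a stimulatory G protein subunit, had 215, 84.4 and 204 CPM against 65.1, 48.8 and 53.2 (log2 1.57 ± 0.35, adjusted p = 0.0192). Cd81, a tetraspanin gene of the distal chromosome 7 cluster, had 369.7, 84.9 and 189 CPM against 64.4, 31.8 and 24.2 (log2 2.40 ± 0.55, adjusted p = 0.0201). No group overlapped for these 4 genes, as with 48.5% of all genes tested.

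Of the other imprinted genes edgeR called 6 of 37 in CTCF HET round spermatids (16.2%, against 22.3% of all genes) and 17 of 37 in BORIS KO round spermatids (45.9%, against 55.8%). In spermatocytes it called 3 of 34 in CTCF HET (8.82%, against 15.5%) and 22 of 35 in BORIS KO (62.9%, against 57.2%). It called 0 of 39 in whole testis of CTCF HET and of BORIS KO, with 2 and 5 at an unadjusted p under 0.05 and 0 and 1 called by DESeq2. It called 0 of 38 in CM round spermatids and 0 of 40 in CM spermatocytes, with 9 and 8 at an unadjusted p under 0.05 and 2 and 7 called by DESeq2. It called 0 of 39 between CM and BORIS KO whole testis, with 5 at an unadjusted p under 0.05 and 1 called by DESeq2. Between WT round spermatids and spermatocytes 30 of 44 were called (68.2%), 15 in each direction. Peg13, a noncoding RNA, was higher in round spermatids by 5.67 on the log2 scale, Ano1, a chloride channel gene, by 5.23, Inpp5f, a phosphoinositide phosphatase gene, by 3.12 and Gnas by 2.16. Ppp1r9a, which encodes an actin-binding scaffold, was lower by a log2 difference of -1.87, Nap1l4, a histone chaperone gene, by -1.39, Gab1, an adaptor gene, by -1.25 and Copg2, a coat protein gene next to Mest, by -0.92.

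Over the 12 whole testis libraries the gene most like Igf2 among 17557 was Slc16a1, a monocarboxylate transporter gene (Pearson r 0.99 of log2 CPM). Cdkn1c was most like Rnf151 (0.98), Grb10 most like Ezh1 (0.98), Igf2r most like Minpp1 (0.97) and Rasgrf1 most like Sall3 (0.96). Among the 10 genes themselves Igf2 and Igf2r were the most alike (0.89), and H19 was most like Mest (0.83). Cdkn1c and Rasgrf1 were at 0.10 with each other and lower with the rest. These libraries differ in genotype, depth and cell makeup, which such correlations do not separate, and the correlations are given as a description.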

How the data were processed

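RNA was measured in 35 libraries of 4 genotypes, and CTCF, BORIS, RNA polymerase II and H3K4me3 binding by ChIP-seq of germ cell-enriched testis. The authors deposited raw counts per gene for mm9. Per the study's methods, whole testis reads (Ion Proton) were aligned with TopHat2 and then Bowtie2, and purified-cell reads with STAR; the counting tool and annotation are not given in the sources used here. The authors deposited CTCF and BORIS peaks with a summit and a height (pileup signal), 1 list for each antibody and genotype from 2 ChIP replicates, called with MACS and PeakSplitter after Bowtie2. RNA polymerase II and H3K4me3 peaks were deposited by the authors with a MACS score.

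Counts were tested pairwise with edgeR 4.0.16 in R 4.3.3 (robust quasi-likelihood F test, TMM scaling, filterByExpr with a minimum count of 10 and a minimum total of 15), with Benjamini-Hochberg adjustment over all genes tested and a call at an adjusted p below 0.05. The fit was tested on simulated data. CPM used TMM-scaled totals of 1 preparation. Peaks overlapped when they shared 1 base. Gene loci came from NCBIM37, the assembly of mm9. The imprinted genes, the other gene lists and the comparisons were chosen with earlier results of these data known. Other imprinted genes named were called ones, at most 4 a direction by adjusted p, of CM against WT (whole testis, round spermatids) and of WT round spermatids against spermatocytes, and marker genes named were the most abundant of a list. Whole testis libraries of the same number deviated together in 18 of 18 pairs (r 0.12 to 0.63), but only 4 of 18 round spermatid and 1 of 15 spermatocyte pairs passed r 0.1. The main fits left this pairing out in every preparation, whole testis included, and the replicate block was run as an alternative. Alternatives were the study's thresholds (adjusted p below 0.001 and fold above 2), RLE scaling, DESeq2 1.42.0, no filter, all groups in 1 fit, the replicate block and leaving out each library. Scaling by library totals, DESeq2 with the study's thresholds, CM replicate 1 alone and the interaction of genotype and cell type were chosen after seeing the data. Some summit sequences are not reported here.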

Additional observations from a re-analysis of the deposited data

Results flagged for a closer look

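The effect of a genotype differed between round spermatids and spermatocytes for 6 combinations of gene and genotype, by an interaction term fitted with edgeR across all genes. This test was chosen after seeing the data. For CTCF HET the effect in round spermatids minus that in spermatocytes was -1.33 for Igf2 on the log2 scale (adjusted p = 0.0253), from -1.10 and 0.33, and -1.61 for Cdkn1c (adjusted p = 0.0375), from -0.66 and 1.05. It was 6.31 for H19 (adjusted p = 0.0459) and 5.74 for Plagl1 (adjusted p = 0.0115), but both rest on spermatocyte libraries that were all at 0, so that these sizes are no bound. These were 4 of 9 genes tested, where 33.6% of all genes were called, and all 3 CTCF HET spermatocyte libraries are among those with few genes of low count. For BORIS KO the difference was -1.12 for Igf2 (adjusted p = 0.0282), from -1.98 and -0.93, so Igf2 was lower than WT in both cell types and more so in round spermatids. It was -1.09 for Rasgrf1 (adjusted p = 0.0197), from -0.23 and 0.80. These were 2 of 10 genes, where 13.4% of all genes were called. Round spermatids and spermatocytes were compared over libraries that share no sample. For CM edgeR called none of 10 genes, where 3.51% of all genes were called.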

How the results depend on the processing

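No called difference changed its sign under any alternative run. Of 240 fits of the 18 called pairs of gene and comparison 77 lost the call, and of 1095 fits of pairs not called 37 gained it. In 55 fits the sign turned for a gene called in neither. The counts of imprinted genes called moved as follows, and the cause was not tested. Percentages in brackets are the shares of all genes called in the same fits. In CM whole testis (2 called) the study's thresholds gave 0 (0%), RLE scaling 1 (25.5%) and DESeq2 with the study's thresholds 0 (9.98%). DESeq2 at an adjusted p below 0.05 added Cdkn1c (33.1%). All groups in 1 fit gave 4 (35.3%), the replicate block 4 (43%) and library totals 4 (33.1%). Leaving out 1 library gave 0 to 3 (0.0178% to 29.2%). In CTCF HET round spermatids (2) these were 0 by the study's thresholds (0.00656%), 1 by DESeq2 with them (3.5%) and 1 without the filter (16.4%). All groups gave 0 (2.96%), the block 1 (17.8%) and totals 1 (24.7%). Without 1 library the counts were 0 to 5 (5.88% to 42.3%). In BORIS KO round spermatids (2) the study's thresholds gave 1 (15.5%), and library totals (57.3%) added Peg3. In CM round spermatids (0) DESeq2 gave 4 (11.7%), all groups in 1 fit 5 (17.9%), and leaving out 1 library 0 to 1 (0% to 5.67%). In CTCF HET spermatocytes (0) all groups gave 2 (21.2%) and leaving out 1 library 0 to 1 (0.0073% to 22.7%). In BORIS KO spermatocytes (5) the study's thresholds gave 0 (4.77%), DESeq2 2 (52.6%) and DESeq2 with those thresholds 0 (4.88%). All groups gave 0 (14.5%), the replicate block 3 (52.2%) and leaving out 1 library 3 to 5 (39.9% to 64%). In CM spermatocytes (0) DESeq2 gave 1 (21.9%), all groups 1 (13.1%) and leaving out 1 library 0 to 3 (0% to 38.9%). CM replicate 1 alone against WT gave log2 differences of 2.62 for H19 and 1.26 for Cdkn1c. It is 1 library that stands for its group and says nothing of the spread within CM. Between CM and BORIS KO whole testis (0) DESeq2 gave 1 (7.21%), the block 1 (7.36%) and leaving out 1 library 0 to 1 (0% to 7.46%). Between WT round spermatids and spermatocytes (7) the study's thresholds gave 3 (35.7%) and all groups 3 (50.6%). Of the WT CTCF peaks at these loci, with every list held to the upper 50% of its heights, 4 of 7 overlapped BORIS and 5 had no CM peak. Over all peaks the shares were 16.8% and 43.2%. This setting also drops the lower CM peaks, and in the full CM list only the Rasgrf1 peak of these 7 had no match. With all heights and 2 kb on each side the counts were 4 and 5 of 9, and with 50 kb they were 11 and 15 of 38. The shares over all peaks were 17.5% and 43.9%.

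Over all genes the calls moved by more than 1.5 times with DESeq2 in CM round spermatids (1797 in place of 1), CM spermatocytes (3225 in place of 89), BORIS KO whole testis (386 in place of 9), CTCF HET whole testis (3 in place of 1) and CM against BORIS KO (1201 in place of 1). In whole testis the replicate block gave 7043 for CM (4135 without it), 1077 for BORIS KO, 42 for CTCF HET and 1225 between CM and BORIS KO. All groups in 1 fit gave 2899 in CM round spermatids, 480 in CTCF HET round spermatids (3405) and 5014 in BORIS KO round spermatids (8658). The same fit gave 3231 in CTCF HET spermatocytes (2119), 2219 in BORIS KO spermatocytes (8207), 2002 in CM spermatocytes and 379 between CM and BORIS KO. Without the filter 20 were called in BORIS KO whole testis and 1376 in CTCF HET spermatocytes. Under the study's thresholds edgeR called 0 genes in CM whole testis and DESeq2 1635. The split in CTCF HET spermatocytes was 924 higher and 1195 lower, or 1101 and 922 with RLE scaling, and in CM spermatocytes 56 and 33, or 147 and 37 by library totals. Library totals moved the median of all genes to 0.32 in BORIS KO round spermatids, 0.24 in BORIS KO spermatocytes, 0.21 in BORIS KO whole testis and -0.15 in CTCF HET spermatocytes. By library totals Igf2r (log2 1.35, adjusted p = 0.0159) and Grb10 (0.95, 0.019) were called in CM whole testis. In round and meiotic cells, where the numbers did not pair the libraries, the replicate block called 1 imprinted gene in CTCF HET round spermatids and 3 in BORIS KO spermatocytes.

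H19 in whole testis rested on 2 to 55 counts. In CTCF HET spermatocytes 3 counts were worth 0.0529 to 0.0634 CPM, but replicate 2 had 0 counts of Peg3 and Mest where replicate 1 had 2.68 and 2.49 CPM, so that limit does not bound those zeros. Groups of 2 or 3 libraries, several of them decided by 1 library, the single peak list for each genotype and the differing cell makeup of whole testis limit every comparison.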
